A study of Rattus norvegicus with 6 samples.

Results

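Tumour necrosis factor (TNF) superfamily ligands, their receptors and the adaptors that the receptors recruit were followed as 1 group of genes in the L5 dorsal root ganglion (DRG) of the rat. The group was set by the family's gene symbols, not by a threshold on measured values, but with earlier results of these data known. It lists 18 ligands, 22 receptors and 10 adaptors. Of these 50 genes, 41 had a transcript cluster, the array's unit for 1 gene, among the 13215 genes and 19418 clusters measured. They were 15 ligands, 21 receptors and 5 adaptors. Tnfsf8, Tnfsf9, Tnfrsf9, Traf1, Traf4, Traf5, Tradd and Tnfaip3 matched no cluster and were not analysed here, and neither was Fasl under that symbol.

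The SNT group held L5 DRG of male Wistar rats taken 7 days after transection of the L5 spinal nerve, an injury that cuts the peripheral axons of the neurons in that ganglion. The naive group held L5 DRG of male Wistar rats with no surgery. There was no sham-operated group, so the nerve cut and the operation itself cannot be told apart. Each group had 3 arrays of the type Rat Exon 1.0 ST (Affymetrix), whose probes lie in the exons of a gene. Each array carried labelled RNA from a separate pool of 4 animals (12 animals per group). Values are log2 signals after RMA, which corrects background, normalises the arrays and summarises probes. They order 1 gene across arrays but not different genes on 1 array. A gene was called when its limma p-value, adjusted by Benjamini-Hochberg over all 19418 clusters, was below a false discovery rate (FDR) of 0.1.

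TNF superfamily ligands are mostly membrane proteins that act as trimers, at the cell surface or after being shed, and each binds 1 or a few receptors. Receptors with a death domain can recruit Fadd and Ripk1 and lead to caspase activation or to necroptosis, whereas the others bind Traf proteins and act mainly on NF-kB and MAP kinase signalling. In sensory ganglia TNF itself is known as a cytokine released after nerve injury that can sensitise nociceptive neurons, and several other ligands of the family are known chiefly as regulators of lymphocytes.

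The injury markers Atf3 and Sprr1a were higher on every SNT array than on any naive array, and sensory neuron markers gave signal in both groups. Several cell marker lists differed between the groups. Over all 13215 genes, as a background for the counts of called markers, 19.9% rose and 18.3% fell. The linear signals of the genes of each list were summed per array, so the brightest genes of a list weigh most in its sum. All 9 measured macrophage markers (of 10 listed) rose, with a summed linear signal of 5000 to 9150 on the SNT arrays and 1510 to 2040 on the naive arrays. Among T and NK cell markers 5 of 6 measured (of 9 listed) rose, and the sums were 779 to 1120 on the SNT arrays and 222 to 237 on the naive arrays. Gzmb (16.6-fold) and Cd8a (6.13-fold) rose far more than Cd5 (1.71-fold), Cd2 (1.46-fold) and Prf1 (1.23-fold). The general T cell marker Cd3d was not called (1.31-fold, adjusted p = 0.109). None of the 2 measured B and plasma cell markers (of 6 listed) was called. For both every SNT array was below every naive array, but for Ms4a1 only just (4.72 against 4.73). Their sums were 92.6 to 114 on the SNT arrays and 122, 125 and 333 on naive replicates 1, 2 and 3. Of 6 measured sensory neuron markers (of 8 listed) 4 fell, namely Isl1, Pou4f1, Scn10a and Nefh. Tubb3 (1.03-fold, with overlapping groups) and Prph (0.854-fold) were not called. The sums of the 6 were 10700 to 13900 on the SNT arrays and 15900 to 17100 on the naive arrays. Among satellite glia markers 2 of 4 measured (of 5 listed) fell. Their sums were 2250 to 2510 on the SNT arrays and 3030 to 3350 on the naive arrays. All 6 neuron markers, and all measured satellite glia markers but Slc1a3, had a mean log2 value of 8 or more on the naive arrays. Of all genes at that level 41.1% fell. Of 4 measured Schwann cell markers 1 rose, and the sums overlapped at 12600 to 14900 on the SNT arrays and 13500 to 16200 on the naive arrays. Of 3 measured fibroblast markers 2 rose, with sums of 9300 to 11600 on the SNT arrays and 7480 to 9260 on the naive arrays. RMA values have no zero, so no marker could be placed at 0. In whole ganglia a change in the number of cells of a type and a change in RNA per cell cannot be told apart, and this holds for every gene described here.

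The TNF superfamily and its adaptors were mostly higher after SNT. Of the 41 measured genes 21 rose, 1 fell and 19 were not called. Over all 13215 genes 19.9% rose and 18.3% fell, so the 51.2% of the group that rose stood above the background. The 2.44% that fell stood below it. The group and the pathway list below were chosen with earlier results of these data known, so such shares only describe them. The median log2 difference was 0.32 over the 41 genes and 0.07 over all genes. Over all 19418 clusters 17.3% rose and 14.8% fell, 32.1% in either direction. Tnfrsf12a, Tnfrsf19 and Tnfrsf1b rose by more than 2-fold, as did 2.47% of all genes, and none of the 41 fell that far, against 3.03% of all genes. On 26 of the 41 genes every SNT array was above every naive array, against 28.6% of all genes, and on 2 (Tnfsf15 and Traf3) every SNT array was below, against 23% of all genes. With 3 arrays against 3 an exact two-sided permutation test of a single gene cannot go below p = 0.1, so calls rest on the limma fit across all clusters.

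**Figure D1:**
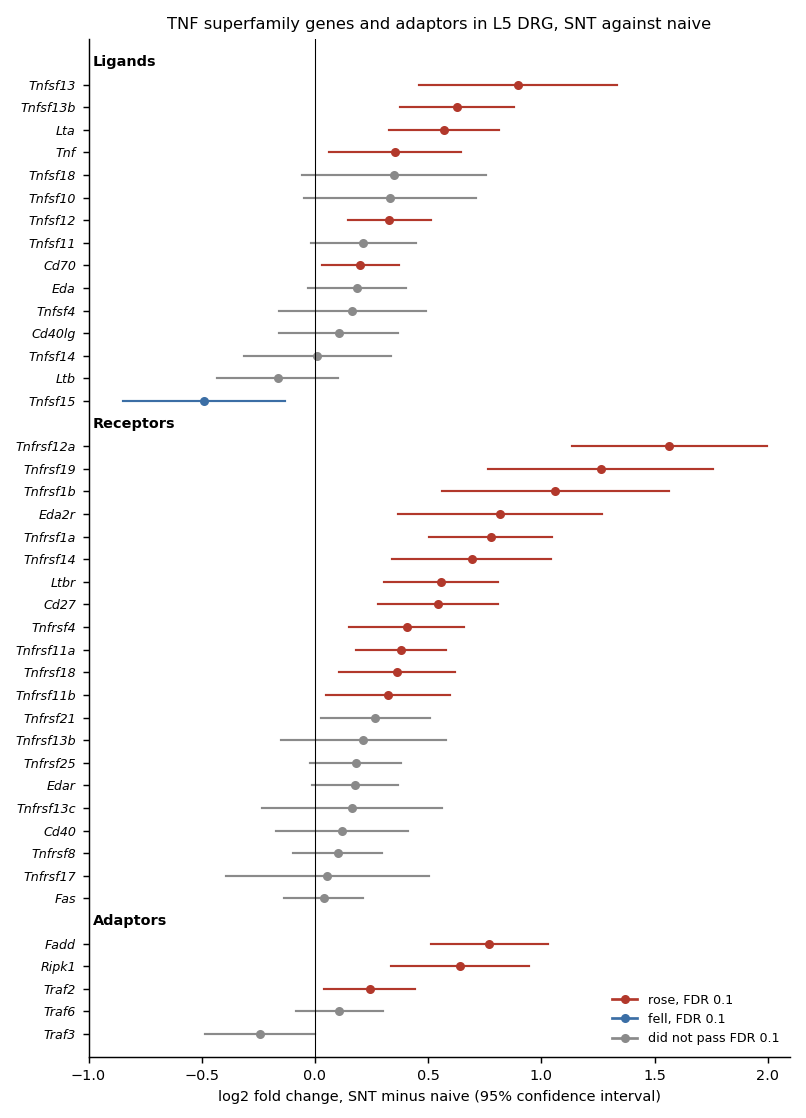
Log2 fold change (SNT minus naive, x axis) of the 41 measured genes by role, with 95% confidence intervals from the limma fit (n = 3 arrays per group). All 21 receptors lie to the right of 0, and Tnfsf15 is the only gene drawn as fallen. Fas, Cd40, Tnfrsf8 and Tnfrsf17 lie left of 0 with quantile normalisation or cyclic loess, and Fas and Tnfrsf17 with median centring. So do Tnfrsf17 with array weights or without SNT replicate 1, and Tnfrsf13c without naive replicate 1.

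Receptors carried the largest changes. Of 21 measured receptors 12 rose (57.1%, against 19.9% of all genes) and none fell (against 18.3% of all genes), with a median difference of 0.36. All 21 differences were positive, but those of some uncalled receptors turned negative in alternatives. That was so for Fas, Cd40, Tnfrsf8 and Tnfrsf17 with quantile normalisation or cyclic loess, and for Fas and Tnfrsf17 with median centring. It was also so for Tnfrsf17 with array weights or without SNT replicate 1, and for Tnfrsf13c without naive replicate 1. Receptors for TNF and lymphotoxins (Tnfrsf1a, Tnfrsf1b and Ltbr), the TWEAK receptor Tnfrsf12a, the orphan receptor Tnfrsf19 and the ectodysplasin receptor Eda2r were among those that rose. So were Cd27, Tnfrsf4, Tnfrsf14 and Tnfrsf18, which are best known on lymphocytes, and the bone regulators Tnfrsf11a and Tnfrsf11b.

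Tnfrsf12a, also called Fn14, is the receptor of the ligand TWEAK and is known to be induced in injured tissue. Its log2 values were 8.10, 8.82 and 8.38 on the SNT arrays, against 6.75, 6.96 and 6.90 on the naive arrays. Every SNT array was over 1 log2 unit above every naive array, and the log2 difference of 1.57 ± 0.18 (SE), 2.96-fold, had an adjusted p of 0.00479. Tnfrsf19, or TROY, is a receptor of the nervous system that can take part in the receptor complex for myelin inhibitors of axon growth. It measured 7.15, 8.02 and 7.49 on the SNT arrays, against 6.35, 6.28 and 6.24 on the naive arrays. The naive arrays lay close together and SNT replicate 2 was the highest, for a difference of 1.26 ± 0.21, 2.4-fold (adjusted p = 0.00967).

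Both TNF receptors rose. Tnfrsf1b (TNFR2), which lacks a death domain and is found mainly on immune and glial cells, gave 7.87, 8.68 and 8.37 on the SNT arrays, against 7.34, 7.02 and 7.38 on the naive arrays. SNT replicate 1 was the lowest of the SNT arrays and still above every naive array, and the difference was 1.06 ± 0.21, 2.09-fold (adjusted p = 0.0153). Tnfrsf1a (TNFR1), the death domain receptor found on most cell types, gave 8.94, 9.27 and 9.29 on the SNT arrays, against 8.44, 8.30 and 8.43 on the naive arrays. That was 0.78 ± 0.11, 1.71-fold (adjusted p = 0.00732), again without overlap. Ltbr, which binds lymphotoxin beta heterotrimers and LIGHT (Tnfsf14), gave 7.92, 8.20 and 8.20 on the SNT arrays, against 7.46, 7.56 and 7.63 on the naive arrays, and rose by 0.56 ± 0.11, 1.47-fold (adjusted p = 0.0134).

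Promoter windows of 3 genes that rose are printed, because AP-1 and NF-kB are the transcription factors best known downstream of TNF receptors. Windows are the 250 bases before the RefSeq start site (GRCr8), read 5′ to 3′ on the gene's strand, and capitals mark a motif match. Tnfrsf12a (chr10:13213649-13213898, minus strand) is shown as the gene with the largest rise and holds neither motif, Tnfrsf1b (chr5:162387412-162387661, minus strand) as the only gene that rose with an AP-1 match, and Lta (chr20:3623277-3623526, plus strand), the ligand described further on, for its NF-kB match.
Tnfrsf12a: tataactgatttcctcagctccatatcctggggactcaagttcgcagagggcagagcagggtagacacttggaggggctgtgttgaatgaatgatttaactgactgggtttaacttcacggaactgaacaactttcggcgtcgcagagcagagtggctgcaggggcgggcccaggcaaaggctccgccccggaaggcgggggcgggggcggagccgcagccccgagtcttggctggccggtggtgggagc
Tnfrsf1b: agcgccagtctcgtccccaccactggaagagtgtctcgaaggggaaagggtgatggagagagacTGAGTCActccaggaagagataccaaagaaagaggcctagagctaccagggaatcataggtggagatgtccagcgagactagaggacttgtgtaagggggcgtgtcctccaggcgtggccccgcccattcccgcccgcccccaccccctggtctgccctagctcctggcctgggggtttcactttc
Lta: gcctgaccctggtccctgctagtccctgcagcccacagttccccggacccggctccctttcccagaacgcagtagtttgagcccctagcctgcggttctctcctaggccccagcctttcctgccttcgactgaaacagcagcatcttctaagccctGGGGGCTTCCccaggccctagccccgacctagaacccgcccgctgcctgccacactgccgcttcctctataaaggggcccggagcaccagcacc
The AP-1 motif was TGANTCA, which reads alike on both strands, and the NF-kB motif was GGG, any 3 bases and then TTCC, on either strand. No window of a gene that rose held both motifs. Windows were at hand for 38 of the 50 listed genes and for 16 of the 21 that rose. An AP-1 match was present in 1 of those 16, against 2 of the 15 genes with a window that were not called (Fas and Tnfrsf8) and 6.36% of 27457 windows of all genes. In Tnfrsf1b its first base lay 186 bases before the start site. An NF-kB match was present in 3 of the 16, Eda2r, Lta and Tnfrsf4, at 229, 94 and 28 bases before their start sites. It was present in 2 of the 15 not called (Ltb and Traf3) and in 4.53% of all windows. A match is a run of letters and was not tested as a binding site.

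Tnfrsf14 (HVEM), a receptor for LIGHT and lymphotoxin alpha, measured 6.68, 7.25 and 7.01 on the SNT arrays, against 6.21, 6.30 and 6.35 on the naive arrays, a difference of 0.69 ± 0.15, 1.62-fold (adjusted p = 0.019). Eda2r (XEDAR), which binds a splice form of ectodysplasin, measured 5.0, 5.78 and 5.44 on the SNT arrays, against 4.60, 4.68 and 4.48 on the naive arrays. SNT replicate 1 lay nearest the naive arrays for both genes and the groups did not overlap, and Eda2r rose by 0.82 ± 0.19, 1.76-fold (adjusted p = 0.0246). Cd27, a co-stimulatory receptor of T cells, measured 5.85, 5.60 and 5.74 on the SNT arrays, against 5.12, 5.37 and 5.08 on the naive arrays, and rose by 0.54 ± 0.11, 1.46-fold (adjusted p = 0.0164). Unlike most of the genes that rose, Cd27 was highest on SNT replicate 1. Tnfrsf11a (RANK), known for osteoclast formation and found on myeloid cells, measured 7.11, 7.30 and 7.12 on the SNT arrays, against 6.79, 6.77 and 6.83 on the naive arrays, and rose by 0.38 ± 0.08, 1.3-fold (adjusted p = 0.0209). The 9 receptors described so far kept their calls when any 1 array was left out.

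The other 3 receptors that rose, with differences of 0.32 to 0.40, did not keep their calls throughout. Tnfrsf4 (OX40), a co-stimulatory receptor of activated T cells, measured 6.05, 6.24 and 5.89 on the SNT arrays, against 5.59, 5.67 and 5.71 on the naive arrays, a difference of 0.40 ± 0.11, 1.32-fold (adjusted p = 0.0362). Its call was lost without naive replicate 1 (0.134) or 2 (0.107), these being adjusted p-values, which ran over all alternatives at 0.0243 to 0.134. Tnfrsf18 (GITR), found on regulatory T cells, measured 6.01, 5.87 and 5.65 on the SNT arrays, against 5.53, 5.42 and 5.50 on the naive arrays, a difference of 0.36 ± 0.11, 1.29-fold (adjusted p = 0.0533). The call was lost without SNT replicate 2 (0.118), or naive replicate 1 (0.133), 2 (0.164) or 3 (0.133), and the adjusted p ran at 0.0303 to 0.164 over all alternatives. With quantile normalisation and cyclic loess the difference of Tnfrsf18 was 0.24 and 0.23. Tnfrsf11b (osteoprotegerin), a secreted decoy receptor for RANKL and TRAIL, measured 6.94, 6.96 and 7.02 on the SNT arrays, against 6.62, 6.46 and 6.87 on the naive arrays, a difference of 0.32 ± 0.12, 1.25-fold (adjusted p = 0.0904). Its lowest SNT value was only just above its highest naive value, and the call was lost without SNT replicate 1 (0.111), 2 (0.157) or 3 (0.174), or naive replicate 1 (0.234) or 2 (0.247) (adjusted p 0.0491 to 0.252 over all alternatives).

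The receptors that were not called numbered 9: Cd40, Fas, Tnfrsf8, Tnfrsf13b, Tnfrsf13c, Tnfrsf17, Tnfrsf21, Tnfrsf25 and Edar. Their differences lay between 0.04 for Fas, the death receptor of Fas ligand, and 0.27 for Tnfrsf21. Tnfrsf21 (DR6), a death domain receptor known for its part in axon degeneration, came nearest to a call at 11.40, 11.18 and 11.45 on the SNT arrays, against 11.14, 11.12 and 10.97 on the naive arrays. The groups did not overlap, and the difference was 0.27 ± 0.10 (adjusted p = 0.105). It passed the threshold with quantile normalisation (adjusted p = 0.0277), with cyclic loess (adjusted p = 0.0207), with a filter on dim clusters (adjusted p = 0.0864), with one-symbol clusters only (adjusted p = 0.077), with trend and robust moderation (adjusted p = 0.0908) or without SNT replicate 2 (adjusted p = 0.0564) (adjusted p 0.0207 to 0.324 over all alternatives). The 95% interval of the difference was -0.14 to 0.21 for Fas and wider, -0.39 to 0.50, for Tnfrsf17 (BCMA).

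**Figure D2:**
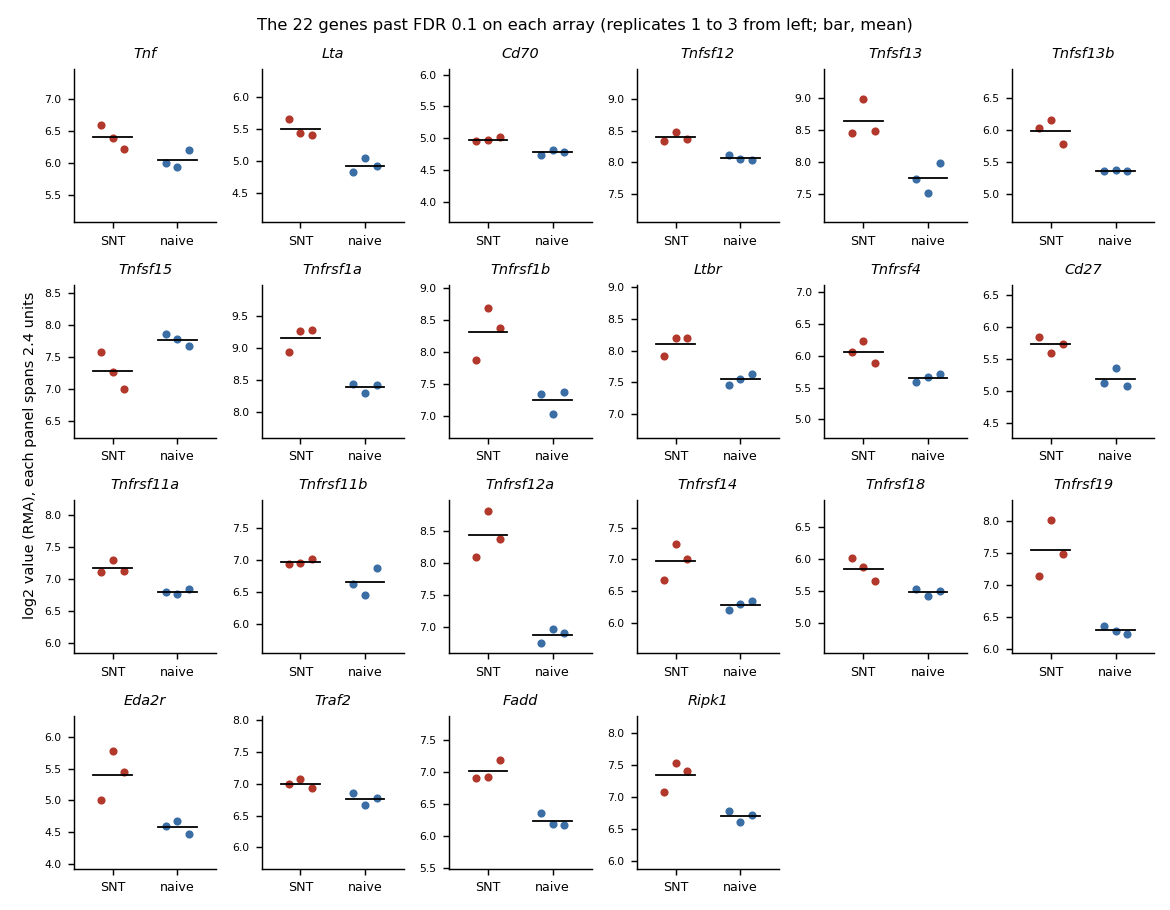
Log2 value on each array of the 22 called genes, with SNT left of naive in every panel and a bar at the mean of 3 arrays. The panels share 1 span of log2 units, so differences can be compared between panels. SNT and naive values do not overlap in any of them, but for Tnf the lowest SNT point and the highest naive point are almost level.

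Among 15 measured ligands 6 rose (40%, against 19.9% of all genes) and 1 fell (6.67%, against 18.3% of all genes). The other 8 were not called, and the median difference was 0.21. Those that rose were the B cell factors Tnfsf13 and Tnfsf13b, lymphotoxin alpha (Lta), TNF itself, TWEAK (Tnfsf12) and Cd70. Tnfsf13 (APRIL), which sustains plasma cells and is made by myeloid cells, had the largest difference. It measured 8.44, 8.99 and 8.48 on the SNT arrays, against 7.72, 7.51 and 7.99 on the naive arrays, 0.90 ± 0.18 higher after SNT, or 1.86-fold (adjusted p = 0.0167). Tnfsf13b (BAFF), a survival factor of B cells, measured 6.03, 6.15 and 5.79 on the SNT arrays, against 5.35, 5.37 and 5.36 on the naive arrays, and rose by 0.63 ± 0.11, 1.55-fold (adjusted p = 0.0102). Neither gene's groups overlapped, and both were highest on SNT replicate 2.

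Lta, a secreted ligand of both TNF receptors made by lymphocytes, measured 5.66, 5.45 and 5.41 on the SNT arrays, against 4.83, 5.05 and 4.92 on the naive arrays, and rose by 0.57 ± 0.10, 1.49-fold (adjusted p = 0.0115). Tnf, made mainly by macrophages and also by glia and neurons after injury, measured 6.60, 6.39 and 6.23 on the SNT arrays, against 6.00, 5.95 and 6.21 on the naive arrays. The lowest SNT array of Tnf was almost level with the highest naive array. Its difference of 0.35 ± 0.12, 1.28-fold, had an adjusted p of 0.084, and the call was lost without SNT replicate 1 (0.141) or 2 (0.15), or naive replicate 1 (0.23) or 2 (0.233) (adjusted p 0.0584 to 0.233 over all alternatives). Tnf and Lta were both highest on SNT replicate 1, the SNT array on which 14 of the 21 genes that rose were lowest.

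Tnfsf12 (TWEAK), the ligand of Tnfrsf12a, measured 8.33, 8.48 and 8.38 on the SNT arrays, against 8.11, 8.05 and 8.04 on the naive arrays. The difference was 0.33 ± 0.08, 1.26-fold (adjusted p = 0.0256). With the arrays centred on their medians it was 0.24 and not called (adjusted p = 0.134, and 0.0139 to 0.134 over all alternatives). Cd70, the ligand of Cd27, measured 4.95, 4.97 and 5.02 on the SNT arrays, against 4.74, 4.82 and 4.78 on the naive arrays. The values were tightly grouped and the difference small, 0.20 ± 0.07 or 1.15-fold (adjusted p = 0.0903), and the call was lost without SNT replicate 2 (0.139) or 3 (0.169), or naive replicate 1 (0.28), 2 (0.181) or 3 (0.222) (adjusted p 0.056 to 0.665 over all alternatives). Scaling also made it smaller, at 0.06 with quantile normalisation, 0.07 with cyclic loess and 0.11 with median centring.

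Tnfsf15 (TL1A) was the only gene of the group that fell. It is known as a product of endothelial cells that acts on T cells through Tnfrsf25, and it measured 7.58, 7.27 and 7.00 on the SNT arrays, against 7.87, 7.78 and 7.68 on the naive arrays. All SNT values were below all naive values, and the difference was -0.49 ± 0.15 (adjusted p = 0.0583). The call was lost without SNT replicate 2 (0.124) or 3 (0.104), or naive replicate 1 (0.181), 2 (0.149) or 3 (0.107) (adjusted p 0.00929 to 0.181 over all alternatives), so that the number of genes that fell was then 0, and it was 2 without SNT replicate 1, when Traf3 was also called. Of the measured endothelial markers 1 of 2 rose, with sums of 501 to 553 on the SNT arrays and 415 to 464 on the naive arrays, and their part in this fall was not tested.

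The ligands that were not called numbered 8: Ltb, Tnfsf4, Cd40lg, Tnfsf10, Tnfsf11, Tnfsf14, Tnfsf18 and Eda. Some are the only listed partners of receptors that rose. Tnfsf11 (RANKL), the ligand of Tnfrsf11a, measured 5.89, 5.69 and 5.74 on the SNT arrays, against 5.43, 5.66 and 5.59 on the naive arrays, a difference of 0.21 ± 0.10 (adjusted p = 0.162). Tnfsf14 (LIGHT), the ligand of Tnfrsf14 and Ltbr, measured 4.67, 4.43 and 4.29 on the SNT arrays, against 4.25, 4.49 and 4.62 on the naive arrays, with overlapping groups and a 95% interval for the difference of -0.31 to 0.33. Tnfsf4 (OX40 ligand) measured 4.34, 4.29 and 3.96 on the SNT arrays, against 3.95, 3.91 and 4.23 on the naive arrays, a difference of 0.17 ± 0.14 (adjusted p = 0.418). The groups of Tnfsf4 also overlapped.

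Tnfsf18 (GITR ligand) measured 5.02, 4.31 and 4.70 on the SNT arrays, against 4.30, 4.36 and 4.32 on the naive arrays. SNT replicate 1 was the highest and SNT replicate 2 lay among the naive arrays, and the difference was 0.35 ± 0.17 (adjusted p = 0.192). Without SNT replicate 2 it was 0.53 and called (adjusted p = 0.0365, and 0.0365 to 0.363 over all alternatives). Eda (ectodysplasin), known for the development of hair and teeth, measured 7.29, 7.35 and 7.54 on the SNT arrays, against 7.26, 7.19 and 7.18 on the naive arrays, and every SNT array was above every naive array for a difference of 0.19 ± 0.09 (adjusted p = 0.188). It passed the threshold with array weights (adjusted p = 0.0983) or without SNT replicate 1 (adjusted p = 0.0946) (adjusted p 0.0946 to 0.629 over all alternatives). Tnfsf10 (TRAIL) and Cd40lg differed by 0.33 ± 0.16 and 0.11 ± 0.11, and Ltb, the membrane partner of lymphotoxin alpha, by -0.16 ± 0.11 (95% interval -0.43 to 0.10).

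Set out as pairs, 23 of 26 listed ligand and receptor pairs had both genes measured. Ligand and receptor both rose in 6 pairs, which were Tnf and Lta with each of the TNF receptors, Tnfsf12 with Tnfrsf12a, and Cd70 with Cd27. That count rests in part on the less stable calls of Tnf and Cd70. It was 3 without SNT replicate 2, naive replicate 1 or naive replicate 2 and 5 without any 1 of the other arrays, and it was 3 with quantile normalisation or cyclic loess and 2 with median centring. In 9 pairs only the receptor was called, among them Tnfsf14 with Ltbr and Tnfrsf14, Tnfsf11 with Tnfrsf11a, and Eda with Eda2r. Lta, also a ligand of Tnfrsf14, was not listed as a pair with it, and both of these genes rose. In 5 pairs only the ligand rose, and all 5 join Tnfsf13 or Tnfsf13b to Tnfrsf13b (TACI), Tnfrsf13c (BAFF receptor) or Tnfrsf17 (BCMA), receptors of B and plasma cells. These receptors differed by 0.21 ± 0.15, 0.16 ± 0.17 and 0.05 ± 0.19. The 2 measured B and plasma cell markers were not called either. Both were lower on every SNT array than on any naive array, but for Ms4a1 only just (4.72 against 4.73). Cd79b measured 8.20 on naive replicate 3, against 6.57 and 6.63 on naive replicates 1 and 2. Tnfsf15 fell while its receptor Tnfrsf25 (DR3), at 6.66, 6.54 and 6.43 on the SNT arrays, against 6.38, 6.34 and 6.38 on the naive arrays, was not called (adjusted p = 0.173). Neither gene was called in the other 2 pairs. Whether the change of a ligand differed from that of its receptor was not tested, and pairs share genes.

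**Figure D3:**
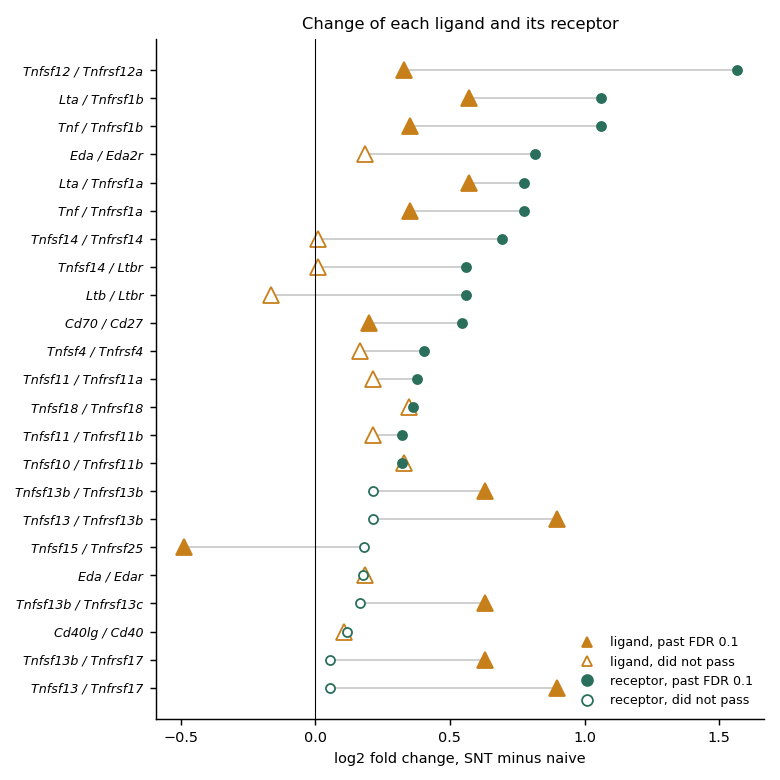
Log2 fold change (SNT minus naive, x axis) of the ligand (triangle) and the receptor (circle) of the 23 pairs, ordered by the receptor's change. Filled symbols passed FDR 0.1. The receptor lies well to the right of the ligand for Tnfsf12 and Tnfrsf12a, and to the left of it for the pairs of Tnfsf13 and Tnfsf13b.

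Of the 5 measured adaptors (of 10 listed) 3 rose (60%, against 19.9% of all genes). Fadd, which links death domain receptors to caspase-8, measured 6.90, 6.93 and 7.20 on the SNT arrays, against 6.36, 6.19 and 6.17 on the naive arrays, and rose by 0.77 ± 0.11, 1.71-fold (adjusted p = 0.00682). Ripk1, a kinase that stands between NF-kB activation, apoptosis and necroptosis, measured 7.08, 7.53 and 7.40 on the SNT arrays, against 6.77, 6.61 and 6.72 on the naive arrays, and rose by 0.64 ± 0.13, 1.56-fold (adjusted p = 0.0158). Neither gene's groups overlapped. Traf2, a ubiquitin ligase recruited by both TNF receptors, measured 6.99, 7.07 and 6.93 on the SNT arrays, against 6.85, 6.66 and 6.77 on the naive arrays, a difference of 0.24 ± 0.09, 1.18-fold (adjusted p = 0.0865). That call was lost without SNT replicate 1 (0.101) or 2 (0.184), or naive replicate 1 (0.139), 2 (0.256) or 3 (0.197) (adjusted p 0.0599 to 0.339 over all alternatives), and with median centring the difference was 0.15.

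Traf3, known as a brake on the non-canonical NF-kB pathway, went the other way. It measured 7.22, 7.07 and 6.88 on the SNT arrays, against 7.32, 7.27 and 7.32 on the naive arrays. All SNT arrays were below all naive arrays and the difference of -0.24 ± 0.10 was not called (adjusted p = 0.134), but it passed the threshold with median centring (adjusted p = 0.0392), with cyclic loess (adjusted p = 0.0829), with array weights (adjusted p = 0.0358) or without SNT replicate 1 (adjusted p = 0.0339) (adjusted p 0.0339 to 0.306 over all alternatives). Traf6, which serves Cd40, Tnfrsf11a and interleukin-1 receptors, differed by 0.11 ± 0.08 (adjusted p = 0.371).

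Further along the pathway, a list of 34 NF-kB and cell death genes had 24 measured, of which 10 rose (41.7%, against 19.9% of all genes) and 3 fell (12.5%, against 18.3% of all genes), with a median difference of 0.27. Ripk3, the kinase that carries out necroptosis with Ripk1, measured 6.96, 7.71 and 7.65 on the SNT arrays, against 6.14, 5.99 and 6.12 on the naive arrays, 1.36 ± 0.20 higher (adjusted p = 0.00708). Rela, the p65 subunit of NF-kB, measured 9.17, 9.44 and 9.47 on the SNT arrays, against 8.56, 8.50 and 8.72 on the naive arrays, 0.76 ± 0.11 higher (adjusted p = 0.00708). Bcl3, a nuclear partner of NF-kB, measured 7.82, 7.83 and 7.54 on the SNT arrays, against 7.02, 7.04 and 7.08 on the naive arrays, 0.69 ± 0.10 higher (adjusted p = 0.00708). All 3 separated the groups, and Ikbkb, the kinase that frees NF-kB from its inhibitor, rose by 0.55 ± 0.08 (adjusted p = 0.00723).

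The other 6 that rose were Adam17, the protease that sheds TNF and its receptors, at 0.99 ± 0.17, Casp8, Nfkb1, Nfkb2, Map3k14 and Birc3. Map3k14, the kinase of the non-canonical pathway that Traf3 restrains, rose by 0.35 ± 0.08 (adjusted p = 0.0249), and its call was lost without naive replicate 1 (0.11). Birc3, a ubiquitin ligase bound to Traf2, rose by 0.52 ± 0.14 (adjusted p = 0.0411), and its call was lost without naive replicate 1 (0.143) or 2 (0.103), and with quantile normalisation (0.186), median centring (0.115) or cyclic loess (0.18). The share that fell was no higher than over all genes. Cyld, a deubiquitinase that restrains NF-kB signalling, fell to 7.98, 7.91 and 7.91 on the SNT arrays, against 8.37, 8.28 and 8.16 on the naive arrays, a difference of -0.33 ± 0.08 (adjusted p = 0.0316), and its call was lost without naive replicate 1 (0.132) or 2 (0.11). Tax1bp1 differed by -0.46 ± 0.12 (adjusted p = 0.0349), and its call was lost without naive replicate 1 (0.127). Map3k5 (ASK1), a kinase upstream of JNK and p38, differed by -0.31 ± 0.08 (adjusted p = 0.0406), and its call was lost without naive replicate 1 (0.122), 2 (0.103) or 3 (0.143). The count of pathway genes that fell was 3 with all arrays, 0 without naive replicate 1 and 1 without naive replicate 2.

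How often genes were called differed with their mean level on the naive arrays. That mean also enters the difference, so how much of the contrast between bands reflects level alone was not tested. Among all genes with a naive mean below 6, where dim clusters lie, 17.5% rose and 2.46% fell. Between 6 and 8 these shares were 25.7% and 15.6%, and from 8 upwards 15.8% and 41.1%. Of the TNF superfamily and adaptor genes 7 of 18 rose below 6, 12 of 20 rose and 1 fell between 6 and 8, and 2 of 3 rose from 8 upwards. Their median differences in the 3 bands were 0.21, 0.34 and 0.33, against 0.13, 0.08 and -0.15 for all genes of the same band.

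**Figure D4:**
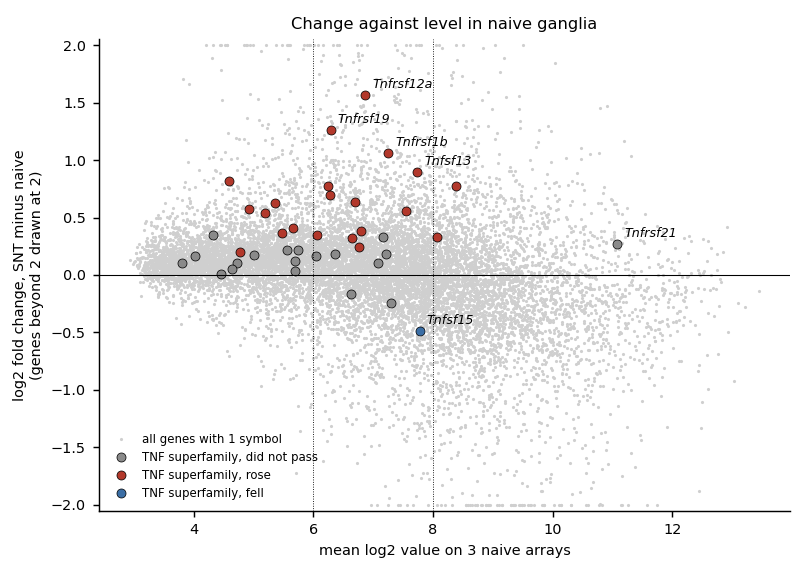
Log2 fold change (SNT minus naive, y axis) against the mean log2 value on the naive arrays (x axis) for all genes (grey) and the 41 genes of the group, with dotted lines at 6 and 8. The group lies mostly below a naive level of 8 and mostly above 0, while bright genes of the background lie mostly below 0.

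The arrays differed within the SNT group. The median difference from the naive mean over the 41 genes was 0.32, 0.26 and 0.24 on SNT replicates 1, 2 and 3. For macrophage markers it was 1.46, 2.27 and 2.20, for T and NK cell markers 0.57, 0.97 and 0.45, and for sensory neuron markers -0.57, -1.34 and -1.02. Dim genes as a whole (naive mean below 6) stood higher on SNT replicate 1 as well, at 0.21, 0.09 and 0.08 on the 3 SNT arrays. Of the 21 genes that rose, 12 were highest on SNT replicate 2, among them Tnfrsf12a, Tnfrsf19, Tnfrsf1b, Tnfrsf14, Eda2r and Ripk1. Only Tnf, Lta, Cd27 and Tnfrsf18 were highest on SNT replicate 1. The part that macrophage, lymphocyte or neuron content had in any of these differences was not tested.

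**Figure D5:**
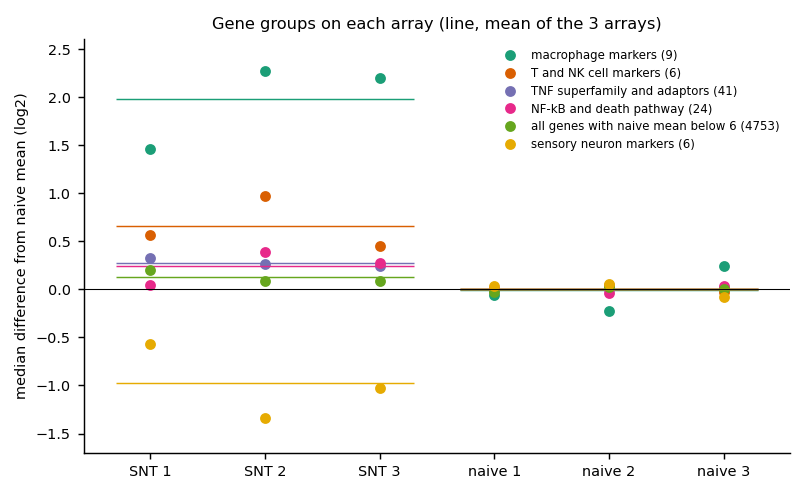
Median log2 difference from the naive mean (y axis) on each array (x axis, SNT arrays left of naive arrays) for the 41 genes of the group, 3 marker lists, the NF-kB and death pathway list and all dim genes, with a line at the mean of 3 arrays. Macrophage and neuron markers are least displaced on SNT replicate 1, and the 41 genes stand between 0.24 and 0.32 on the SNT arrays.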

How the data were processed

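The values are the log2 signals per transcript cluster that the authors deposited. They were made with oligo and RMA, per the labels and the study's methods, with versions not given in the sources used here. RNA (recorded as polyA RNA) came from whole L5 DRG. No further normalisation was applied. SNT and naive arrays were taken from the labels and compared with limma 3.58.1 in R 4.3.3 (lmFit and eBayes, prior df 2.81), with p-values adjusted over all 19418 clusters and an FDR of 0.1. The p-values measure the spread between pools of 4 animals. Symbols come from the platform annotation, in which 13327 clusters have 1 symbol, 620 several and 5471 none. A gene with several clusters was given the one with the highest mean, which affected no gene of the group. Entrez IDs of 40 of the 41 measured genes matched RefSeq under the same symbol (Tnfrsf13b did not). The genes of the group and all lists were chosen with earlier results of these data known. Values on all 6 arrays are given for each gene of the group past the FDR, for the only listed ligand or receptor of such a gene, and for the 2 uncalled genes with the lowest p. From the pathway list, at most 4 genes past the FDR with the smallest adjusted p were named by rule, with up to 3 that went against its median, and the rest past the FDR after their values were seen. The script was tested on simulated data. Alternatives were quantile normalisation, cyclic loess, median centring, a filter on dim clusters, clusters with 1 symbol only, trend and robust moderation, array weights, an FDR of 0.05, a replicate block and leaving out each array. Taking the most variable cluster of a gene was run too, but could change no gene of the group, since each has 1 cluster.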

Additional observations from a re-analysis of the deposited data

How the results depend on the processing

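Of the 22 called genes of the group 14 kept their call in all 15 alternatives that could change them, and 15 kept it whichever array was left out. Quantile normalisation, median centring and cyclic loess each ended the calls of Tnf, Cd70, Tnfrsf11b and Traf2, and quantile normalisation and cyclic loess those of Tnfrsf4 and Tnfrsf18. The 21 that rose became 16 with quantile normalisation, median centring, cyclic loess or an FDR of 0.05, 22 without dim clusters (36 genes measured) or over clusters with 1 symbol, 21 with trend and robust moderation, 19 with array weights and 15 to 19 with 1 array left out. The 1 that fell became 2 with median centring, cyclic loess or array weights, 0 at an FDR of 0.05, and 0 to 2 with 1 array left out. The 3 pathway genes that fell became 0 to 3 with 1 array left out, and the 10 that rose 8 to 13. Replicate numbers are shared between the groups, and the deviations of same-numbered arrays from their group means correlated at -0.0747, -0.149 and 0.054. Those of differently numbered arrays correlated at -0.184 to 0.25. Deviations from a mean of 3 arrays are tied to each other, so these values cannot decide whether the numbers mark a pairing. With a replicate block 17 genes of the group rose and 1 fell. Calls over all 19418 clusters split 3367 up and 2865 down (54% up), and 1869 up and 3403 down (35.5% up) with median centring. Uncalled genes changed sign and stayed uncalled as follows. With quantile normalisation the log2 difference was -0.13 for Tnfsf14, -0.00260 for Cd40, -0.0834 for Fas, -0.0420 for Tnfrsf8 and -0.0927 for Tnfrsf17. With median centring it was -0.0767 for Tnfsf14, -0.0496 for Fas, -0.0327 for Tnfrsf17 and -0.00510 for Relt. With cyclic loess it was -0.00201 for Cd40lg, -0.11 for Tnfsf14, -0.00904 for Cd40, -0.0902 for Fas, -0.0275 for Tnfrsf8 and -0.0715 for Tnfrsf17. With array weights it was -0.0281 for Tnfsf14 and -0.0620 for Tnfrsf17. With 1 array left out the difference ran from -0.0938 to 0.0993 for Tnfsf14, from -0.00567 to 0.29 for Tnfrsf13c and from -0.17 to 0.18 for Tnfrsf17. The cause of these changes was not tested. Other background corrections and a slide block were not run, since no scanner files were used here. Signal over background is not known per cluster, so small changes of dim genes are bounded only by their intervals.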

Other observations

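Receptors of the TNF family that the group did not list also moved. Ngfr, the low-affinity neurotrophin receptor found on sensory neurons and glia, measured 10.81, 10.66 and 10.58 on the SNT arrays, against 11.11, 11.13 and 11.01 on the naive arrays, a log2 difference of -0.40 ± 0.09 (adjusted p = 0.0216), although its call was lost with quantile normalisation (a difference of -0.27, adjusted p = 0.119) or cyclic loess (-0.26, adjusted p = 0.112). Tnfrsf22, a decoy receptor for TRAIL in the mouse, measured 5.97, 6.61 and 6.39 on the SNT arrays, against 5.22, 5.37 and 5.37 on the naive arrays, 1.01 ± 0.16 higher (adjusted p = 0.0091). Tnfrsf10b, the TRAIL death receptor, measured 6.27, 6.13 and 6.16 on the SNT arrays, against 5.93, 5.43 and 5.78 on the naive arrays, 0.47 ± 0.14 higher (adjusted p = 0.0482), and was not called without naive replicate 2 (0.104) or 3 (0.103), or with quantile normalisation (0.12), median centring (0.108), cyclic loess (0.137) or array weights (0.109). Relt differed by 0.08 ± 0.10 (adjusted p = 0.599). Fas ligand, which the annotation lists under the older symbol Faslg and which was not counted, measured 5.35, 5.29 and 5.60 on the SNT arrays, against 5.23, 5.31 and 5.18 on the naive arrays, a difference of 0.17 ± 0.10 (adjusted p = 0.276).

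Some genes of the group lie next to each other in the RefSeq order of GRCr8. Tnfsf12 and Tnfsf13 are adjacent and both rose, as did Lta and Tnf, while Ltb on the other side of Tnf was not called. Tnfrsf4 and Tnfrsf18 are adjacent and both rose. Cd27, Ltbr and Tnfrsf1a, with 1 gene between each, all rose. Tnfrsf8 next to Tnfrsf1b, and Tnfsf14 next to Cd70, were not called, and neither were the adjacent genes Tnfsf4 and Tnfsf18. Of those that rose, Tnf, Cd70, Tnfrsf4 and Tnfrsf18 did not keep their calls in every alternative, and Tnfsf12 did not with median centring.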
